A study of Mus musculus with 4 samples.

Results

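The heart of mice injected with acrolein was compared with the heart of mice injected with normal saline (NS), by 1 single-colour Agilent whole mouse genome array a side. Female *C57BL/6J* mice, 6 weeks old per the labels (the study's methods give a slightly younger age), received acrolein at 5 mg/kg or NS into the abdominal cavity once a day for 2 days. Acrolein was given in water, and the controls received NS only. Hearts were taken 3 h after the last dose per the labels and methods, whereas a sentence of the study's results names a later time, and a piece of each heart was frozen. Which part of the heart this was and how many mice stood behind 1 array are not given in the sources used here. The design text mentions that 3 independent studies were done, but each condition has a single array here. The series holds 4 arrays in all, and the other ones were hybridised with hearts of mice given cyclophosphamide (CY) at 400 mg/kg, or N-acetyl cysteine (NAC) at 200 mg/kg before CY at 400 mg/kg (NAC + CY). The comparison was defined by these labels alone and covered 15396 named genes of the 24813 on the array, those with a probe well above background on the NS array, the Acrolein array or both.

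Acrolein is a small unsaturated aldehyde that is released when CY is activated in the body, and it reacts readily with the thiol groups of glutathione and proteins. Cells dispose of it by conjugation with glutathione and by aldehyde dehydrogenases and reductases, and many genes of these pathways are under the transcription factor Nrf2. The heart itself is built of cardiomyocytes, endothelium, fibroblasts and mural cells, is covered by mesothelium, and carries fat on its surface. RNA of such a piece is a mixture, and fewer cells of one type and less RNA per cell cannot be told apart in it.

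A level below is the quantile-normalised signal of a gene's brightest probe, in arbitrary fluorescence units, and a ratio is the log2 of the Acrolein signal over the NS signal. A gene counted as higher where the Z-score reached 2 and the signal was 1.5-fold or more that on NS. It counted as lower where the Z-score reached -2 and the signal was 0.66 of that on NS or less. The Z-score sets a probe's log2 ratio against the 200 probes nearest to it in signal. It measures how far a probe stands from other probes on the same 2 arrays and is no test of replicates, and with 1 array a group no p-value can be given. Of 15396 genes, 165 were called higher, which is 1.07%, and 202 were called lower, which is 1.31%. The other genes lay close to 0, with a median log2 ratio of 0.01 over all genes, quartiles of -0.10 and 0.12, and 94.1% within 1.5-fold either way. The called genes had a median log2 ratio of 0.92 on the higher and -1.02 on the lower side. At shares of 1.07% and 1.31%, short lists hold few calls or none, so a list without a call is near the share of all genes.

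The error behind a single ratio depended on brightness. Spots of 1 probe repeated on the same array differed by a median SD of 0.05 log2 units (292 probes), and different probes of 1 gene differed in their log2 ratio by a median SD of 0.13 (6216 genes). The SD of the log2 ratios of neighbouring probes was 0.58 in the dimmest decile of the probes and 0.11 in the brightest decile. In the dimmest window the mean log2 ratio was itself 1.34, so that the dimmest genes were called lower at smaller differences than higher. Of the higher genes 43 were not well above background on the NS array, and of the lower genes 55 were not so on the Acrolein array, and these have only bounds. Where a called gene had more than 1 kept probe, all its probes went the same way in 24 of 31 higher and 24 of 36 lower genes. Another probe was also called in only 9 of these 31 and 10 of these 36, and 1 higher gene had a probe called lower. RNAs of the labelling kit that are added to each sample, the spike-ins, read lower on the Acrolein array for each of the 7 that were well above background, by 0.13 to 0.24 on the log2 scale. For each of these 7 spike-ins the CY and NAC + CY arrays read lower still, so that NS was the highest array. Their part in the results below was not tested. Actb and Gapdh had log2 ratios of 0.00 and -0.03.

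**Figure D1:**
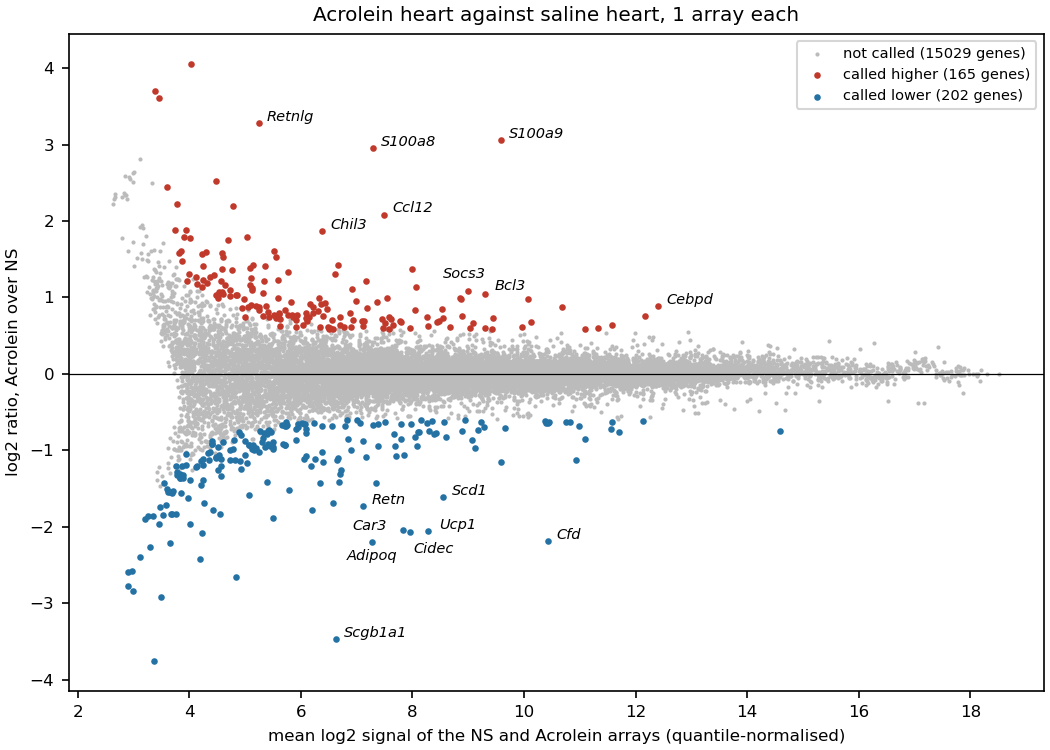
Log2 ratio of Acrolein over NS (vertical axis) against the mean log2 signal of both arrays (horizontal axis) for 15396 genes, 1 point per gene, with 165 genes called higher in red and 202 called lower in blue. S100a9, S100a8 and Retnlg stand out on the upper side and Cfd and Scgb1a1 on the lower side, while the cloud widens towards dim genes.

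Of 16 kept neutrophil genes 7 were higher on the Acrolein array and none was lower. S100a9 and S100a8 encode the subunits of calprotectin, a calcium-binding protein that fills the cytoplasm of neutrophils. The S100a9 probe lies on chromosome 3 at 90496573 to 90496632 and the S100a8 probe at 90473778 to 90473837 (build mm9). S100a9 had a signal of 265 on the NS array and 2211 on the Acrolein array, with 2875 on NAC + CY. S100a8 had 56.2 on NS and 435 on Acrolein, with 221 on CY and 714 on NAC + CY. NS was the lowest and NAC + CY the highest of the 4 arrays for both genes, and Acrolein stood second. Their log2 ratios were 3.06 and 2.95, with SDs of 0.27 and 0.33 among probes of like signal.

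Retnlg, a secreted protein of neutrophil granules, was not well above background on NS (12.2) and reached 118 on Acrolein, at least 7.18-fold higher. The lectin receptor Clec4d went from 21.6 to 57.9, the formyl peptide receptor Fpr2 from 119 to 229 with both of its probes called, and the iron-binding protein Lcn2 from 290.0 to 479.6. The collagenase Mmp8 was at least 1.88-fold higher. NAC + CY stood above Acrolein for Retnlg (145), Clec4d (208), Lcn2 (1879) and Mmp8 (69.3), and below it for Fpr2 (173). CY stood above Acrolein for Clec4d (405) and Lcn2 (1608), and below it for Retnlg, Mmp8 and Fpr2. The median log2 ratio of the 16 was 0.84, beside 0.01 for all genes, and 0.36 with normexp background correction. The list had 30 genes, and 14 were not well above background on either array, among them the granule genes Mpo, Prtn3, Ltf, Camp and Ngp and the receptor Cxcr2. Of the 16 kept genes, 5 passed the filter on the Acrolein array alone, where a higher level is part of passing. Among the 11 measured on both arrays 5 were higher, with a median of 0.55. The surface marker Ly6g had a log2 ratio of 0.27, the elastase Elane 0.44 and the growth factor receptor Csf3r 0.04, and none of these was called. The summed signal of the kept genes, carried largely by Csf3r, was 13.44 on NS and 13.82 on Acrolein on the log2 scale. Csf3r read between 9097 and 9407 on the 4 arrays, so the sum mostly reflects a gene that hardly varied.

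Of 15 monocyte genes 4 were higher and none lower, with a median of 0.20. Chil3, a chitinase-like secreted protein, went from 43.6 to 159.6 (log2 ratio 1.87, Z-score 6.15). Ifitm6 stood at 1.41, Plac8 at 0.93 and the immunoglobulin receptor Fcgr4 at 0.73. NAC + CY stood above Acrolein for Chil3 (187), Ifitm6 (70.6) and Plac8 (129), and below it for Fcgr4 (54.1). The receptor that draws monocytes out of the marrow, Ccr2, had 28.6 and 30.3 and was not called, nor were Ly6c2 (0.05) and Ms4a4c (0.07). Genes of resident macrophages gave 0 calls among 17, with Cd163 at -0.34, Lyve1 at -0.21, Csf1r at 0.08 and Adgre1 at 0.52. Both summed levels differed little, at 15.80 and 15.90 for monocyte genes and 13.90 and 13.95 for macrophage genes on the log2 scale. The monocyte sum was carried largely by Ms4a4c, Ly6c2 and Itgam (24636, 18449 and 12394 on NS). The called genes are too dim to move it.

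Of 29 kept genes of chemokines, the secreted proteins that guide white blood cells, and their receptors, 7 were higher and none was lower. Ccl12 had signals of 87.4 on NS, 34.7 on CY, 67.1 on NAC + CY and 371 on Acrolein, and only Acrolein stood above NS. Its log2 ratio was 2.08 and its Z-score 8.28. The related monocyte attractants Ccl7 and Ccl2 had 62.2 and 331 on NS and 167 and 508 on Acrolein, log2 ratios of 1.43 and 0.62, and for these too both CY arrays lay below NS. The 5 genes Ccl2, Ccl7, Ccl11, Ccl12 and Ccl8 follow each other on chromosome 11 between 82035577 and 82116799 (GRCm38.p6). Ccl11 and Ccl8, which lie within this stretch, had log2 ratios of 0.20 and 0.32 and were not called.

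Cxcl1, a neutrophil attractant, went from 91.4 to 177. Cxcl10, an interferon-induced attractant of T cells, was not well above background on NS and was at least 3.56-fold higher on Acrolein (58.7). Ccl3 was at least 1.78-fold higher, and Cxcl14 stood at 0.60. Ccl4 had 0.70 by its brighter probe and was not called, although its other probe was. The list had 40 genes, and the median of the 29 kept was 0.16. Among the 27 measured on both arrays 5 were higher, and with normexp background correction 4 of the list were called. All 7 were ligands, and the receptors had Ccr7 at -0.72, Cxcr4 at 0.16 and Cx3cr1 at 0.07, with Cxcr2, Cxcr3 and Ccr1 not well above background on either array. The lymphocyte attractants Ccl5 (-0.21) and Cxcl9 (-0.06), both far lower on the CY array, were near their NS level on Acrolein.

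The stretch before the gene start, where regulators of inflammation can bind, is shown for 3 of the higher genes. All 3 belong to the minority of higher genes with a motif match, so they are not typical of the higher genes. The sequences are the 250 bases before the RefSeq gene start on GRCm38.p6, 5′ to 3′ on the strand of the gene. Capitals mark letters that match 1 of 3 motifs, searched on both strands: TTC and GAA parted by 3 bases for STAT factors, GGGA and TTCC parted by 2 bases for NF-kB, and GAAA and GAAA parted by 2 bases for interferon regulatory factors.
Icam1, chr9:21015690-21015939, plus strand: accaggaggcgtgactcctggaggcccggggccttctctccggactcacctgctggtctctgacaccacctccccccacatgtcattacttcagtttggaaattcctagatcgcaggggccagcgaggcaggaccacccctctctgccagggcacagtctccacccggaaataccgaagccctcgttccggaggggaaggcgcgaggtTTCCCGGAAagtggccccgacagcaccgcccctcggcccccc
Cxcl1, chr5:90890995-90891244, plus strand: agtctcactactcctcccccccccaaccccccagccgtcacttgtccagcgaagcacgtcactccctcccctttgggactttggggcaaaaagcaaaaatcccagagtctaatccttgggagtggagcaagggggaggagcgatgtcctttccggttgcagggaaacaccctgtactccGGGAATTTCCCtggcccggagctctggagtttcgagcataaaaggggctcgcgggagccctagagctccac
Cxcl10, chr5:92348890-92349139, minus strand: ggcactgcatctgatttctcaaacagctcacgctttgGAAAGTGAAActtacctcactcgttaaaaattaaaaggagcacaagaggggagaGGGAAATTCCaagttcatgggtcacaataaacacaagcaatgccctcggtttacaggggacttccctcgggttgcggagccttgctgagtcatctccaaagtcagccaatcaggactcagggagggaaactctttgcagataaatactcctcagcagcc

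In Icam1 the STAT letters begin 42 bases before the start, in Cxcl1 a pair of overlapping NF-kB matches begins 71 and 70 bases before it, and in Cxcl10 the interferon motif begins 213 and the NF-kB motif 159 bases before it. Promoters were found for 126 of the higher and 149 of the lower genes. The STAT letters were in 13 of the 126 (10.3%), in 10 of the 149 (6.71%) and in 7.02% of all 32851 promoters. The NF-kB letters were in 4 of the higher genes (3.17%), in 2 of the lower genes (1.34%) and in 1.21% of all promoters. The interferon motif was in 8 (6.35%), 7 (4.70%) and 2.98% of them. Among the 12129 kept genes with a promoter, the shares of the STAT, NF-kB and interferon motifs were 7.37%, 1.39% and 3.15%. These are matches of letters in a short window, not measured binding.

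Of 18 genes of IL-6 type cytokines, STAT3 and SOCS signalling 4 were higher and none was lower. Socs3, the feedback inhibitor that interleukin-6 type cytokines switch on through STAT3, had 352 on NS, 967 on CY, 1222 on NAC + CY and 747 on Acrolein, so that NS was the lowest array. Its log2 ratio was 1.09, with an SD of 0.18 among probes of like signal. Cebpd, a transcription factor of the acute phase, stood at 3984 on NS against 7346 to 8226 on the other arrays (log2 ratio 0.88). The NF-kB cofactor Bcl3 was highest on Acrolein, with 901 against 438 on NS, 471 on CY and 716 on NAC + CY. Junb (0.60) was the fourth, and the median of the list was 0.17. The receptor subunit Osmr had 0.56 and was not called, nor was Stat3 itself (-0.07). Il6, Lif, Osm and Il10 were not well above background on either array.

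Of 19 NF-kB targets and endothelial activation genes 5 were higher and none lower, with a median of 0.24. The bacterial pattern receptor Tlr2 went from 132 to 262 and was highest on Acrolein. Interleukin-1 beta (Il1b) was not well above background on NS and was at least 3.45-fold higher, again with Acrolein the highest of the 4 arrays at 61.0. The adhesion molecule Icam1 had 433 on NS, 951 on CY, 1308 on NAC + CY and 685 on Acrolein, and both of its probes were called on Acrolein. Nfkbiz had a log2 ratio of 1.25 and Ch25h, which makes 25-hydroxycholesterol, one of 0.74. The inhibitor Nfkbia (-0.04), the cytokine Tnf (-0.13) and the adhesion molecule Vcam1 (0.46) were not called.

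The interferon-induced genes gave 2 calls among 42, Cxcl10 and the guanylate-binding protein Gbp6 (0.85), with a median of 0.02. Isg15 (-0.46), Ifit1 (-0.40) and Irf7 (-0.17) stood below 0 without a call. The acute-phase list had calls both ways, with 2 of 17 higher and 3 lower. Serpina3n, a protease inhibitor, went from 21.0 to 54.7, whereas Saa3, an amyloid protein of inflamed tissue, was at least 5.70-fold lower on Acrolein and haptoglobin (Hp) had a log2 ratio of -0.79. Both were far above NS on the CY array, at 559 and 2696. The iron hormone Hamp had 171 on NS, 3761 on CY, 287 on NAC + CY and 53.02 on Acrolein, and Acrolein was the lowest (log2 ratio -1.69). The complement genes had 2 of 18 higher, the anaphylatoxin receptors C5ar1 (0.92) and C3ar1 (0.75), and 2 lower, Cfd and C2.

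**Figure D2:**
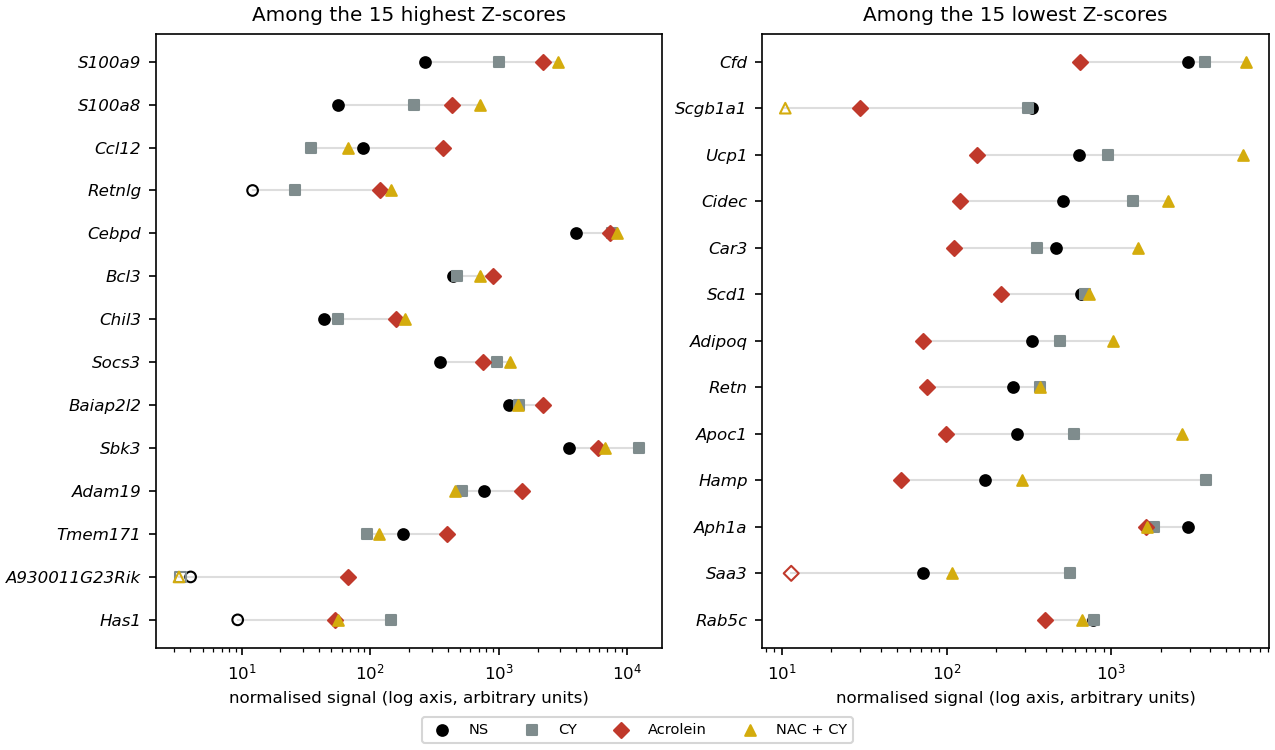
Normalised signal (horizontal log axis, arbitrary units) on the NS, CY, Acrolein and NAC + CY arrays for genes among the 15 highest Z-scores (left) and the 15 lowest (right), 1 array per condition and no error bars. Filled symbols are well above background and open ones are not. On the right the Acrolein symbol lies to the left of NS for every gene drawn, with NAC + CY to the right of NS for fat genes such as Cfd, Cidec and Adipoq, and for S100a9 and S100a8 on the left NS is lowest.

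Of 22 white fat genes 9 were lower on the Acrolein array and none was higher. Cfd, the complement protease adipsin that fat cells secrete (probe on chromosome 10 at 79355302 to 79355361, mm9), had 2927 on NS, 3736 on CY, 6556 on NAC + CY and 646 on Acrolein. Both of its probes were called, and the log2 ratio was -2.18 with an SD of 0.20 among probes of like signal. In the same order, the adipokine Adipoq had 330.2, 489, 1027 and 72.3, and the lipid droplet protein Cidec had 507, 1364, 2200.0 and 121. The carbonic anhydrase Car3 and the desaturase Scd1 had 112 and 215 on Acrolein against 459.9 and 656 on NS. The hormone resistin (Retn) stood at 76.3 against 252, with both probes called. In each of these genes Acrolein was the lowest of the 4 arrays.

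The lipid droplet protein Plin1 and the beta-3 adrenergic receptor Adrb3, neither well above background on Acrolein, were at least 3.50-fold and 2.45-fold lower. Pck1, a gluconeogenic enzyme that fat cells also express, stood at -1.43. The median of the white fat list was -0.35. The 13 others included Fabp4 (0.07), Lpl (0.14), Pparg (0.10), Lipe (0.08), Pnpla2 (0.06) and leptin (Lep, -0.05), and several of these are also made by cardiomyocytes or endothelium. The summed signal of the list, which those bright genes carry, was 17.85 on NS and 17.89 on Acrolein on the log2 scale. The brown fat uncoupling protein Ucp1 had 635 on NS, 962 on CY, 6287 on NAC + CY and 153 on Acrolein, and the log2 ratio of Acrolein over NS was -2.05. Of 5 kept brown fat genes it was the one called, with Cidea at -0.17 and Dio2 at 0.39. Otop1, not well above background on Acrolein, was at least 1.72-fold lower. It was not called by its brighter probe, although its other probe was called lower. Apoc1, an apolipoprotein, had 267, 592, 2677 and 99.2 on NS, CY, NAC + CY and Acrolein, and Acrolein was the lowest here too.

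Mesothelial genes were lower as a group. Mesothelin (Msln) had 1144 on NS, 3181 on CY, 956 on NAC + CY and 517 on Acrolein, in the same order the uroplakin Upk3b 167, 456, 104 and 62.6, and the keratin Krt19 164, 572, 108 and 66.3. CY was the highest and Acrolein the lowest array for all 3. Of 14 kept genes 11 were lower and 1 was higher, with a median log2 ratio of -0.995, the lowest of all 44 lists, and -0.55 with normexp background correction. All 14 were measured on both arrays. Krt8 and Upk1b were called with both of their probes, at -1.12 and -1.21. Wt1, a transcription factor of mesothelium, had -0.20 and Aldh1a2 -0.47, and neither was called. The secreted Wnt inhibitor Sfrp5, which is also made by fat and other tissues, was the higher one (0.68). The summed signal of the list was 11.77 on NS, 13.59 on CY, 11.72 on NAC + CY and 11.03 on Acrolein on the log2 scale, so the levels on the Acrolein array were the lowest of the 4.

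Of 9 kept genes of the airway and lung lining 3 were lower, 2 of them as bounds near background, and 1 was higher, with a list median of -0.05. Scgb1a1, the secretoglobin of airway club cells (probe on chromosome 19 at 9158197 to 9158256, mm9), had 329 on NS, 314 on CY, 10.5 on NAC + CY and 29.8 on Acrolein, and it was not well above background on NAC + CY. NS and CY were thus alike and the others far below (log2 ratio of Acrolein -3.46). The surfactant protein Sftpc of alveolar cells was at least 3.01-fold lower and the club cell cytochrome Cyp2f2 at least 1.69-fold lower. The higher gene was that of the junction protein Cldn18 (0.88). Sftpa1, Sftpb, Sftpd, Foxj1 and Aqp5 were among the 10 not well above background on either array, and Ager (-0.05), Scgb3a2 (-0.10) and Bpifa1 (0.10) were not called. The amount of lung, fat or surface tissue in the 2 pieces was not measured, and its part in these values was not tested.

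The other cell type lists held few calls, apart from that of lymphocytes. Lymphocyte genes, here those of T cells, NK cells and thymocytes, had 4 of 14 higher and none lower. Their median was 0.25, and over all genes 1.07% were called higher. The 4 were Dntt, the polymerase that immature lymphocytes use to edit their receptors (27.5 on NS, 79.6 on Acrolein), Lck (0.92), Cd8b1 (0.71) and the granzyme Gzma (0.70). All were dim, with 27.5 to 73.4 on NS. On both CY arrays each of these 4 lay below NS. The T cell receptor subunits Cd3e and Cd3d had -0.12 and 0.35. Klra8 (-0.51, with 75.8 on NS and 53.2 on Acrolein), Nkg7 (-0.16) and Cd2 (-0.04) also stood below 0 without a call. The recombination genes Rag1 and Rag2 and the thymocyte gene Ptcra were not well above background on either array. B cell genes gave no call among 8. Of 9 platelet genes 1 was lower (Nrgn, -0.92), with a median of -0.40 and Pf4 at -0.02. Of 7 erythroid genes 1 was lower, the membrane transporter Slc4a1, at least 2.38-fold, while the globins Hba-a1 (-0.37) and Hbb-bt (-0.47) stayed short of the ratio needed for a call.

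No gene was called among 18 of the endothelium, 21 of fibroblasts and matrix, 13 of mural cells, 8 of ventricular muscle, 12 of skeletal muscle and 7 of nerve. Over all genes 1.07% were called higher and 1.31% lower, so lists of this size without a call are near that share. The endothelial genes Sox18 (-0.45), Cldn5 (-0.43) and Egfl7 (-0.40) were the lowest of their list, whose median was -0.11. Their Z-scores were -3.30, -3.18 and -4.04, and Vwf had -0.33 with a Z-score of -2.15. These 4 genes passed the Z-score but not the ratio needed for a call, and Emcn was the highest of the list at 0.14. The fibroblast list had a median of -0.14, with Col3a1 at -0.33 and Col5a1 at -0.36. Atrial muscle genes, a guide to which part of the heart was taken, had a median of 0.34, with 8 of 10 above 0. Myl7, the atrial light chain, went from 38858 to 52264 (0.43), Nppa from 156419 to 199044 (0.35) and Mybphl stood at 0.54. None reached the ratio needed for a call, and Hamp, also on this list, was its 1 call, on the lower side. The liver markers Alb, Apoa1 and Fga were not well above background on either array. Cyp2e1, which fat also expresses, was the lower one of 7 on the hepatocyte list, at -1.08 with both probes called.

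**Figure D3:**
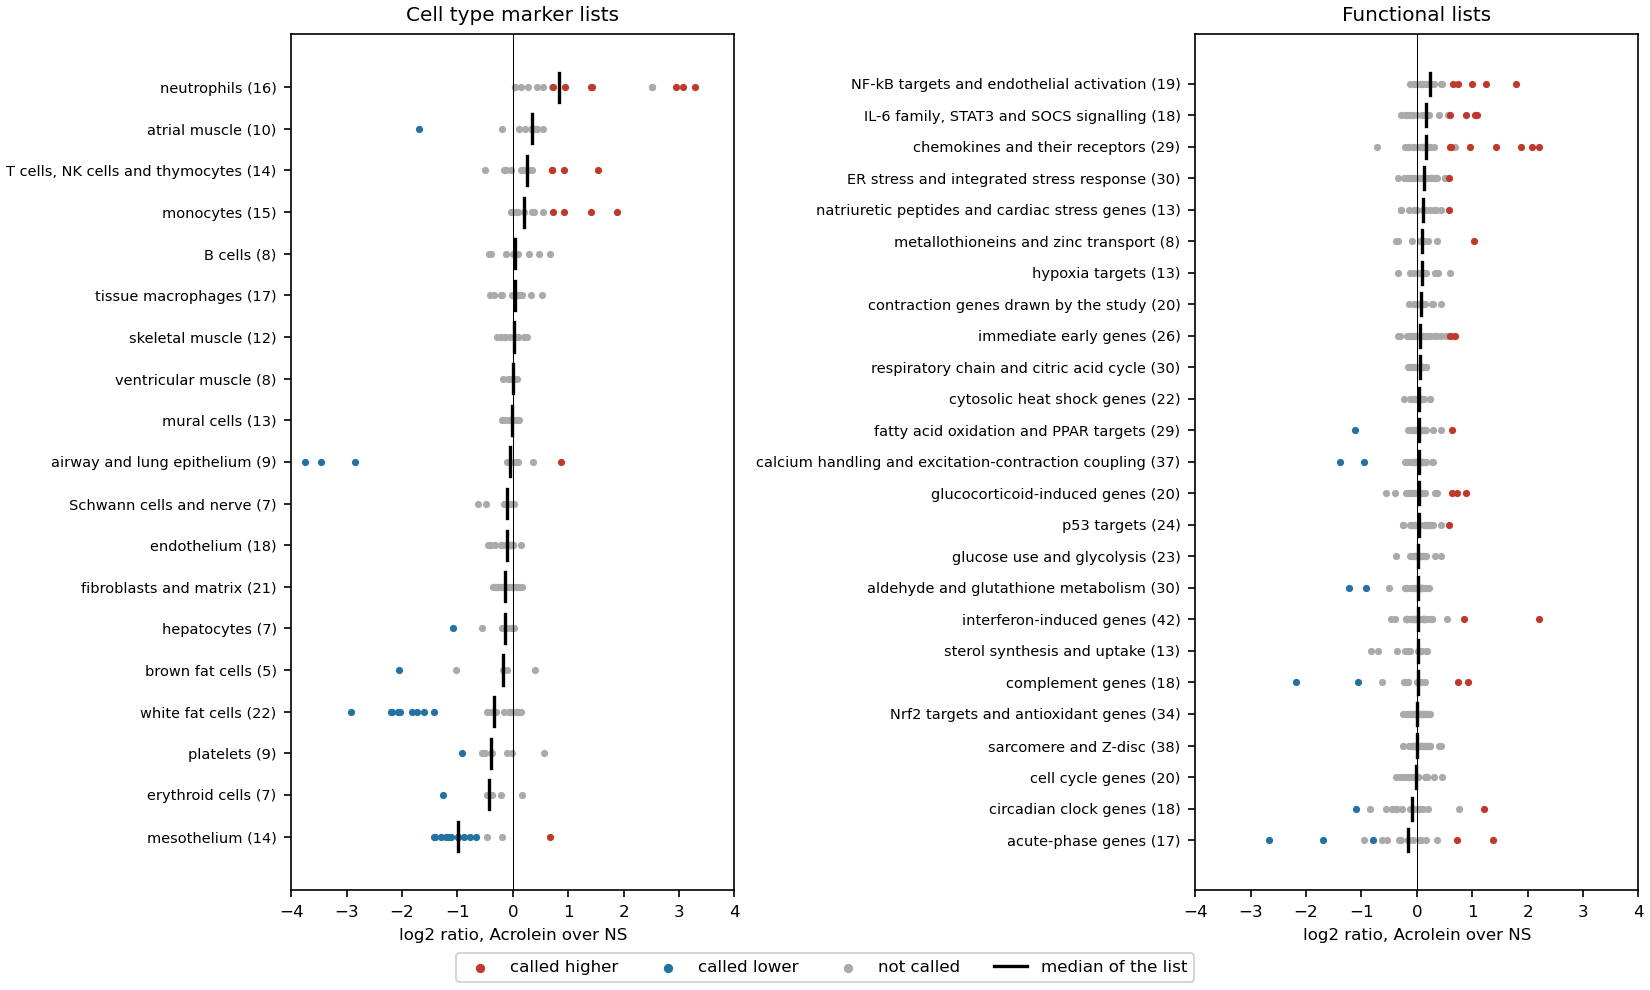
Log2 ratio of Acrolein over NS (horizontal axis) for each kept member of 19 cell type lists (left) and 25 functional lists (right), with the number of kept genes in brackets, called genes coloured and a bar at the median. Neutrophil genes extend furthest to the right, mesothelial genes have the lowest median, white fat and airway genes have a tail of lower genes, and most functional lists centre on 0.

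The genes that deal with acrolein itself were not called higher. Over all genes 1.07% were, so their count is near that share. Of 34 Nrf2 targets and antioxidant genes none was called either way, with a median of 0.01 and values from -0.26 (Tkt) to 0.24 (Gstm2). The haem oxygenase Hmox1 had 349 on NS and 325 on Acrolein but 8135 on CY and 4850 on NAC + CY. The glutamate-cysteine ligase modifier Gclm had 1397 and 1289 against 4533 and 3035, and Srxn1, which repairs peroxiredoxins, 1371 and 1217 against 4887 and 3081. NS and Acrolein were thus close together in these genes, and both CY arrays stood apart. The quinone reductase Nqo1 (-0.04) and the thioredoxin reductase Txnrd1 (0.07) had ratios near 0 as well. The cystine importer Slc7a11 was not well above background on either array.

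Aldehyde and glutathione enzymes gave no higher and 2 lower genes among 30, with a median of 0.02. Aldh2, the mitochondrial enzyme that clears short aldehydes, had 9831 and 10187 (log2 ratio 0.05), Aldh3a1 had 546 and 569.7 (0.06), and the reductase Akr1b8 had a ratio of 0.00. The lower ones were retinaldehyde dehydrogenases and their kin, Aldh1a3 (46.4 and 24.4, log2 ratio -0.93) and Aldh1a7, at least 2.09-fold lower, both dim. Cytosolic heat shock genes, which respond to damaged protein, gave no call among 22, with a range of -0.23 to 0.25. Hspa1a had 178 on NS and 171 on Acrolein against 606 on CY.

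Genes of ER stress and the integrated stress response had 1 of 30 higher. That was Gdf15, a secreted stress hormone that is also on the p53 list (156 and 235 against 1212 and 1473 on the CY arrays). The ER chaperones leaned upward without a call, with Manf and Sdf2l1 at 0.50, Hsp90b1 at 0.34 and Hspa5 at 0.33, while Ddit3 (-0.33) and Atf3 (-0.17) stood below 0. Of 24 p53 targets Gdf15 alone was higher, and Cdkn1a had 0.15 and Mdm2 0.16. Immediate early genes had 2 of 26 higher, Egr1 (0.70, highest on Acrolein with 451) and Junb. The hypoxia list, sterol synthesis and cell cycle lists had no call.

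**Figure D4:**
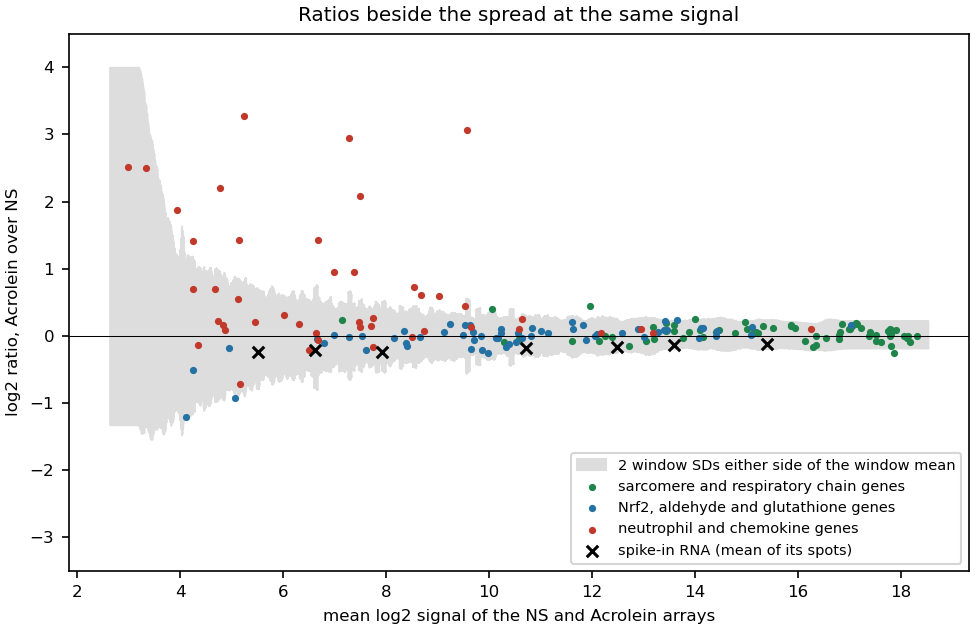
Log2 ratio of Acrolein over NS (vertical axis) against mean log2 signal (horizontal axis), with a grey band of 2 window SDs around the window mean. Several neutrophil and chemokine genes (red) lie above the band, genes of Nrf2, aldehyde and glutathione metabolism (blue) and of the sarcomere and respiratory chain (green) lie mostly within it, and the spike-in RNAs (crosses) lie between -0.24 and -0.13.

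Genes of the contractile apparatus and of energy supply, bright in heart and therefore measured with the smallest spread, mostly differed by less than the ratio needed for a call. At so small a spread the ratio rather than the Z-score decided the call, so an absence of calls leaves smaller differences open. None of 38 sarcomere and Z-disc genes was called, with a median of 0.01 and a range from -0.25 (Tcap) to 0.44 (Myh7). The Z-scores of Tcap and Myh7 were -2.70 and 3.63, and Myot had a log2 ratio of 0.395 with a Z-score of 2.40. Over all genes 1.07% were called higher and 1.31% lower. Titin (Ttn) stood at 0.20 and the fetal isoform Myh7 had 3405 on NS and 4618 on Acrolein. Myh6, the main myosin motor of the adult mouse heart, and the light chains Myl2 and Myl3 had identical signals on both arrays. Quantile normalisation gives spots of equal rank the same signal, so the ratios of 0.00 of these very bright genes cannot show whether their levels differed. Among 37 calcium handling and coupling genes 2 were lower and none higher. These were the kinase Camk2a, which stood at 375 on NS and between 171 and 216 on the 3 other arrays and was called by 1 of its 2 probes, and the plasma membrane pump Atp2b4, at least 2.44-fold lower. The calcium pump Atp2a2 had 119604 and 146064 (0.29, Z-score 2.60) and the release channel Ryr2 6577 and 7097 (0.11), against 2513 for Ryr2 on CY. The 20 contraction genes drawn by the study had no call and a median of 0.08.

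Respiratory chain and citric acid cycle genes lay between -0.17 (Uqcrc2) and 0.17 (Cs and Sdhb), with none of 30 called and a median of 0.05. Genes of glucose use had no call among 23. Of 29 genes of fatty acid oxidation 1 was higher, Angptl4, a lipase inhibitor (0.63), and 1 was lower. Natriuretic peptides and cardiac stress genes had Gdf15 as their single call, with a list median of 0.12. Myh7 (0.44, Z-score 3.63), Nppa (0.35, Z-score 3.18) and Ccn2 (0.31, Z-score 2.38) passed the Z-score but not the ratio needed for a call. Ankrd1 stood at 0.24 and Nppb at 0.17, and Timp1 (-0.29), Postn (-0.28) and Acta1 (-0.14) were the lowest of the list.

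Of 18 clock genes 1 was higher and 1 lower. Arntl, which encodes the activator BMAL1, went from 94.5 on NS to 220.1 on Acrolein (log2 ratio 1.22, 1 of 3 probes called and all 3 above 0), and Ciart, a repressor of the clock, went from 149 to 69.5 (-1.10, called by 1 of 2 probes). The output genes Dbp (-0.45), Tef (-0.39) and Hlf (-0.55) and the repressors Per2 (-0.35) and Per3 (-0.37) stood below 0 without reaching the ratio needed, whereas Per1 (0.03) and Nr1d1 (0.04) were level. The other, dimmer probe of Per3 was called lower. Dbp is bright, with 16291 on NS and 11885 on Acrolein, and its Z-score was -4.97. The hour of the day at which each heart was taken is not given in the sources used here. Of 20 glucocorticoid-induced genes 3 were higher, Cebpd, Lcn2 and Angptl4, each also a member of another list described above, while Fkbp5 (-0.40), Zbtb16 (-0.56) and Tsc22d3 (-0.17) were not called. Of 8 metallothionein and zinc transport genes 1 was higher, the dim Mt4, at least 1.98-fold. The metallothioneins Mt1 (0.07) and Mt2 (0.37) were not called, against signals on CY of 222433 and 149968 beside 85742 and 19145 on NS.

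Other genes with leading Z-scores belonged to none of these groups. The membrane protease Adam19 had 770.1 on NS, 522 on CY, 457 on NAC + CY and 1516 on Acrolein. In Adam19, in Tmem171 (both probes called, log2 ratio 1.14) and in Baiap2l2 (0.87), Acrolein was the highest array. The hyaluronan synthase Has1 was at least 3.25-fold higher than NS and highest on CY. The muscle kinase Sbk3 had a log2 ratio of 0.76 and was also highest on CY. A930011G23Rik was near background on the 3 other arrays and at 66.9 on Acrolein, at least 4.06-fold higher by its single probe. On the lower side, Aph1a, a subunit of gamma-secretase, stood at 2929 on NS against 1619 to 1831 on the others, with 3 of its 4 probes called. The GTPase Rab5c was lowest on Acrolein (396 against 666 to 781 elsewhere).

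Since the NS array is the control of every comparison in the series, the levels on all 4 arrays were set side by side. Among the 165 higher genes, Acrolein exceeded all 3 other arrays by at least 1.5-fold in 73 (44.2%), and NS lay below all 3 others by that much in 49 (29.7%). Among the 202 lower genes, Acrolein lay below all 3 others in 100 (49.5%) and NS lay above all 3 in 38 (18.8%). Over all 15396 genes these shares were 1.25% and 0.812% on the higher side and 1.05% and 0.559% on the lower side. The call itself requires a difference between NS and Acrolein, so that the higher shares among called genes follow from the choice and are given as a description. S100a9, Socs3, Cebpd and Aph1a are examples in which NS was the array that stood apart, and Ccl12 and Cfd are examples in which Acrolein did. In Msln Acrolein was the lowest array, but CY lay further from the rest on the higher side.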

How the data were processed

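Heart RNA of 4 groups was hybridised to 1 single-colour Agilent SurePrint G3 mouse array each. The authors scanned the arrays and extracted spots with Agilent Feature Extraction (10.7.1.1 per the file headers, 9.5.1.1 in the submitters' notes), and the deposited intensity values are the background-subtracted processed signals, not yet normalised. The deposited value table of the same arrays was used as an alternative only. Control and outlier-marked spots were left out, log2 signals were quantile-normalised over the 4 arrays (Python 3.11.15, numpy 2.4.6, pandas 2.3.3), and spots of a probe were averaged. A probe was kept if well above background on NS or Acrolein (28665 of 56605 probes). A gene was represented by its brightest kept probe and named through RefSeq (GRCm38.p6). A bound ("at least") sets the bright array against the higher of the dim probe's own signal and the lowest signal well above background. With 1 array a group the precision is limited by their number, and no difference has a replicate check. Named genes were the 15 highest and 15 lowest Z-scores, up to 4 genes of each list by size of log2 ratio, Actb and Gapdh, and others named were chosen after their values were seen. Some genes that meet this rule are not reported here. Members and lists were chosen with earlier results of these data known. Alternatives were other normalisations (75th percentile, 2 arrays, normexp in limma 3.58.1), filters, windows, thresholds and probe choices.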

Additional observations from a re-analysis of the deposited data

How the results depend on the processing

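With 1 array per condition no library could be left out, and no paired analysis was possible because each group has 1 sample. As reported, 165 genes were called higher and 202 lower. A Z-score of 3 gave 72 and 87, and normexp background correction gave 44 and 57. A 2-fold ratio with no Z-score gave 173 higher and 122 lower genes, so that more genes were higher than lower. Of 69 named genes that were called, 24 lost the call with normexp, 25 at the 2-fold ratio and 14 at a Z-score of 3. These settings also lowered the mesothelial genes called lower from 11 to 7 (Z-score 3), 6 (normexp) and 6 (2-fold), and the chemokine genes called higher from 7 to 4 (normexp) and 4 (2-fold). Under the other settings these counts, and those of the neutrophil and white fat lists under all settings, stayed within 1.5 times the values reported. No called gene changed sign. Some uncalled genes and list medians near 0 did, among them Gapdh (-0.03, and 0.01 with 75th percentile scaling), Actb (0.00 and -0.03) and the medians of the Nrf2, ventricular muscle and fatty acid oxidation lists under that scaling. The airway median of -0.05 was 0.03 over genes well above background on both arrays. With normexp 11 of 44 list medians moved, all towards 0, among them lymphocytes (0.25 to 0.09), platelets (-0.40 to -0.12) and NF-kB targets (0.24 to 0.10). A Z-score centred on 0, chosen after seeing the data, gave 171 and 180. Signal over background limits dim genes to bounds, and the cause of the changes was not tested.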
